A study of Mus musculus with 24 samples.

Results

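The control line MC38-MOCK#2 was compared with the unmodified parent line MC38-WT. The 6 samples of these lines, 3 of each, are part of 24 samples from 8 lines of MC38 cells. MC38-MOCK#2 was made with the dCas-VPR form of CRISPR, has no target gene and was kept in puromycin. MC38-WT was not modified, was kept without puromycin and has no target gene either. Both lines derive from C57BL/6 mice and were grown in the same medium. MC38-MOCK#2 was harvested at passages 6, 7 and 8 (samples 1, 2 and 3) and MC38-WT at passages 7, 8 and 9 (samples 1, 2 and 3). All genes with at most 4 zeros among the 6 samples were tested, which left 21292 of the 52636 genes of the deposited table. The comparison asks how the control of the dCas-VPR lines differs from the cells it was made from.

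MC38 is a mouse colon carcinoma line that grows as a tumour in C57BL/6 mice and is widely used to study anti-tumour immunity. In the dCas-VPR system a Cas protein that cannot cut DNA carries a fusion of transcription activators, and a guide RNA brings it to the promoter of a gene to raise its transcription. Puromycin stops protein synthesis and kills cells that lack the resistance gene of the vector, so a selected line holds only the descendants of cells that took up the vector. The vector, the drug, the selection and the later growth of the line apart from its parent differ together between these lines and cannot be told apart. Each line is 1 population of cells harvested 3 times, and whether MC38-MOCK#2 is a clone or a bulk population is not given in the sources used here. The p-values therefore measure the spread between harvests, not between independently made lines.

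Values are normalized counts, made by the authors, who scaled the reads of each gene per library and rounded the result. The total per sample lay between 10911849 and 11457909 in MC38-MOCK#2 and between 11170653 and 11687830 in MC38-WT. The gaps that rounding left between values gave estimates of 11040000, 12070000 and 8180000 reads in MC38-MOCK#2 and 9670000, 11850000 and 6760000 in MC38-WT. Across 13144 genes the log2 values correlated with r of 0.971 to 0.985 within MC38-MOCK#2, 0.968 to 0.974 within MC38-WT and 0.944 to 0.967 between the lines, and genes are not independent replicates. Markers of colon epithelium were at or near 0 in both lines. Epcam was 0 in all 6 samples, Cdh1 lay between 0 and 2, and the 15 markers of this list summed to 10 to 23 normalized counts in MC38-MOCK#2 and 10 to 15 in MC38-WT. Of 12 leukocyte markers 7 were 0 in all 6 samples, and Ptprc, which encodes CD45, was 0 in 5 samples and 1 in the other.

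Of the 21292 genes tested, 663 (3.11%) were differentially expressed genes (DEGs), defined by an adjusted p below 0.05 from limma, and 605 of them were protein-coding. In MC38-MOCK#2, 287 genes (1.35%) were higher and 376 (1.77%) were lower than in MC38-WT. The absolute log2 fold change was above 1 for 399 DEGs (1.87% of the genes tested), 144 higher and 255 lower, and the log2 fold changes of all DEGs ran from -4.72 to 6.74. All 663 DEGs had 3 samples of one line above or below all 3 samples of the other, as had 20.1% of all genes tested. The median log2 fold change of all genes was 0. An unadjusted p below 0.05 was found for 3527 genes (16.6%).

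The number of DEGs depended on each library. It was 148 without MC38-WT sample 1, 186 without MC38-WT sample 2, and 0 without MC38-WT sample 3, where 3025 genes had an unadjusted p below 0.05 and the smallest adjusted p was 0.0583. Without MC38-MOCK#2 samples 1, 2 and 3 it was 45, 1 and 107. The fits with 2 samples left in a line assume that both lines vary alike, as does the fit of all 6 samples. Since the samples of no DEG overlapped, leaving out 1 sample could not change a direction. All 663 DEGs had an unadjusted p below 0.05 in all 6 of these fits, which reuse the samples that called them. Of the 663, 234 were called in at least 1 fit. Foxf2 was called in 5 of the 6 fits, more than any other gene. With passage as a covariate 376 genes were called, 315 of them among the 663.

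**Figure D1:**
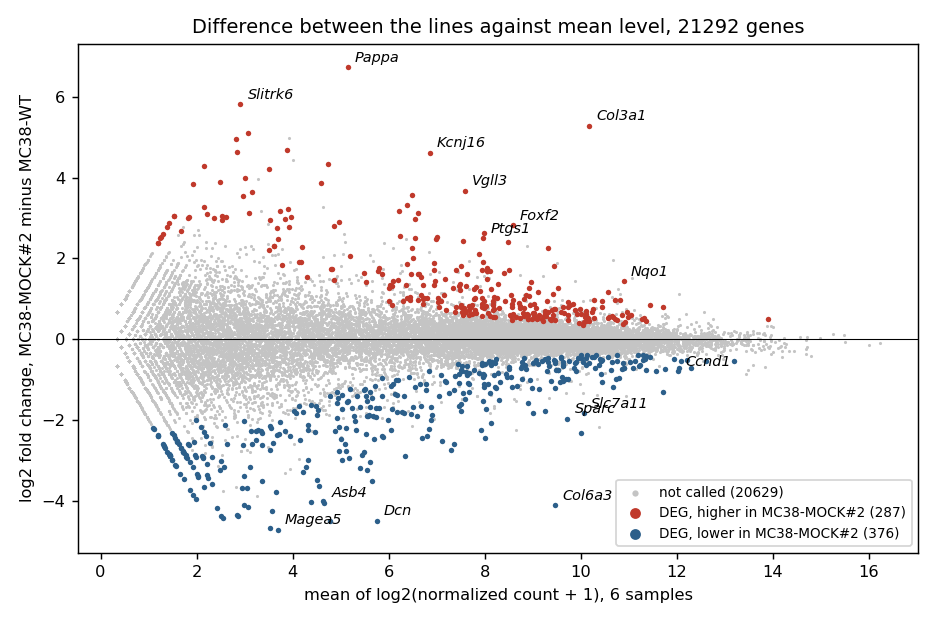
Each point is 1 of 21292 genes, with its mean log2(normalized count + 1) over the 6 samples on the x axis and its log2 fold change (MC38-MOCK#2 minus MC38-WT) on the y axis. The 287 higher DEGs (red) and the 376 lower DEGs (blue) include genes at low levels such as Slitrk6 and genes at high levels such as Col3a1 and Ccnd1.

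The largest differences were of genes near 0 in MC38-WT. Pappa, which encodes a protease that frees insulin-like growth factors from their binding proteins, had 336, 307 and 469 normalized counts in MC38-MOCK#2 and 0, 4 and 7 in MC38-WT. The means differed 101-fold (log2 fold change 6.74, standard error 0.68, adjusted p = 0.00266 from limma). Slitrk6, a transmembrane protein of neurons and the inner ear, had 50, 46 and 75 in MC38-MOCK#2 and 0 in all MC38-WT samples, which makes it at least 19-fold higher (adjusted p = 0.000857 from limma) against a floor of 3 normalized counts in the mean. Both genes were thus present at clear levels in every MC38-MOCK#2 sample and at or close to 0 in every MC38-WT sample.

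Genes of membrane signalling and transcription were also among the largest increases. Kcnj16, an inward rectifier potassium channel, had 407, 557 and 826 normalized counts in MC38-MOCK#2 and 11, 23 and 43 in MC38-WT (23.2-fold). Acvrl1, the BMP receptor ALK1 of vascular cells, had 96, 99 and 181 against 4, 6 and 5 (25.1-fold). Vgll3, a cofactor of the TEAD transcription factors, had 535, 641 and 941 against 48, 58 and 52 (13.4-fold, log2 fold change 3.68, standard error 0.21, adjusted p = 0.000457 from limma). In all 3 genes the lowest MC38-MOCK#2 sample was at least several times the highest MC38-WT sample. Nrep, Ano2, Adamtsl1, Pex5l and Aspn, also among the 12 largest increases, had means of 33.3 to 49.7 in MC38-MOCK#2 and at most 1.67 in MC38-WT.

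The 5 smallest p-values belonged to Foxf2, Vgll3 (described above), Sod3, Ptgs1 and Acsl5. The spread within a line differed between these genes, from 617 to 640 for Sod3 and from 535 to 941 for Vgll3 in MC38-MOCK#2. Foxf2, a forkhead transcription factor of mesenchyme, had 890, 1082 and 1093 normalized counts in MC38-MOCK#2 and 141, 138 and 151 in MC38-WT. Its mean was 7.13-fold higher (log2 fold change 2.82, standard error 0.12, adjusted p = 8.22e-05 from limma), the smallest adjusted p of all genes tested. Sod3, the extracellular superoxide dismutase, had 629, 640 and 617 against 81, 113 and 114 (6.12-fold, adjusted p = 0.000457 from limma). Ptgs1, the cyclooxygenase COX-1, had 506, 587 and 713 against 93, 101 and 120 (5.75-fold). Acsl5, which activates long-chain fatty acids, was lower, with 96, 116 and 121 against 565, 453 and 577 (4.79-fold lower, adjusted p = 0.000744 from limma). None of these genes had overlapping samples, and the gap between the lines exceeded the range within either line.

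Most of the 12 largest decreases were of genes at or near 0 in MC38-MOCK#2. Magea5, an X-linked gene of the cancer-testis type that is silent in most normal tissues, had 1, 1 and 3 normalized counts in MC38-MOCK#2 and 52, 71 and 75 in MC38-WT (39.6-fold lower, log2 fold change -4.72, standard error 0.43, adjusted p = 0.00166 from limma). Magea10 had 0, 1 and 5 against 56, 55 and 60 (28.5-fold lower). Tenm4, a teneurin adhesion receptor, had 7, 5 and 3 against 64, 231 and 149 (29.6-fold lower). These genes were low in every MC38-MOCK#2 sample, whereas the MC38-WT samples of Tenm4 varied more among themselves. Rgs16, which shortens G protein signals, had 1, 1 and 4 against 51, 69 and 38 (26.3-fold lower), and Asb4, part of a ubiquitin ligase, had 4, 5 and 7 against 127, 107 and 77 (19.4-fold lower). Sec16b, a protein of endoplasmic reticulum exit sites, had 6, 3 and 4 against 68, 102 and 84 (19.5-fold lower). Nkx6-3, Trim66, Pid1 and Rhox2h followed the same order, with MC38-MOCK#2 means of 0.667 to 6.33 and MC38-WT means of 32.7 to 98.3.

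**Figure D2:**
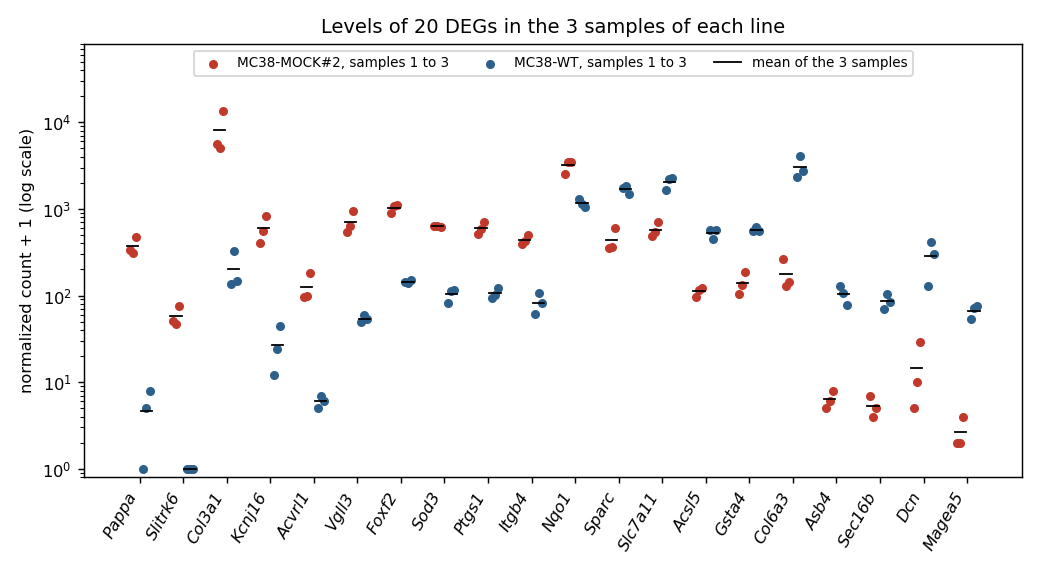
Points show the normalized count + 1 (log scale) of 20 DEGs in MC38-MOCK#2 samples 1 to 3 (red) and MC38-WT samples 1 to 3 (blue), each set from left to right, with a bar at the mean. The samples of the lines do not overlap for any of the 20 genes, and the spread within a line differs between genes, from 617 to 640 for Sod3 and 5020 to 13474 for Col3a1 in MC38-MOCK#2.

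Matrix genes moved in both directions. Of 49 tested collagens and matrix proteins (51 of 53 symbols were found), 4 were higher and 4 lower in MC38-MOCK#2, beside 1.35% and 1.77% of all genes. The median log2 fold change was -0.39. At an unadjusted p below 0.05, 19 were lower and 7 higher, beside 8.42% and 8.15% of all genes. MC38-WT sample 2 was the highest of its line for 37 of the 49, and the sums overlapped. Col3a1, the chain of type III collagen, had 5601, 5020 and 13474 normalized counts in MC38-MOCK#2 and 135, 322 and 145 in MC38-WT (40.0-fold, log2 fold change 5.28, standard error 0.42, adjusted p = 0.00122 from limma). MC38-MOCK#2 sample 3 stood above the other samples of its line, yet even the lowest was far above MC38-WT. Col5a2, a chain of type V collagen, had 37, 65 and 164 against 5, 3 and 0 (33.3-fold). The fibulins Fbln2 and Fbln5, which take part in elastic fibres, were 2.45-fold and 2.00-fold higher.

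Other matrix genes went the opposite way. Col6a3, a chain of type VI collagen, had 263, 128 and 144 normalized counts in MC38-MOCK#2 and 2311, 4034 and 2704 in MC38-WT (16.9-fold lower, log2 fold change -4.11, standard error 0.29, adjusted p = 0.000857 from limma). Dcn, the collagen-binding proteoglycan decorin, had 4, 9 and 28 against 129, 417 and 304 (20.7-fold lower). Sparc, a matrix protein that binds collagen, had 356, 361 and 596 against 1718, 1816 and 1485 (3.82-fold lower), and Col1a2, a chain of type I collagen, had 30, 26 and 23 against 94, 131 and 87 (3.95-fold lower). Of these genes, Dcn varied most within each line.

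Col3a1, Col1a2 and Dcn are also on the list of fibroblast and smooth muscle markers. Of 11 tested markers of this list 1 was higher and 2 were lower, beside 1.35% and 1.77% of all genes. The 11 markers summed to 6315 to 15613 normalized counts in MC38-MOCK#2 and 1192 to 2541 in MC38-WT. Col3a1 made this difference, since the other 10 summed to 1247, 1295 and 2139 against 1057, 2219 and 1597, which overlap. Besides Col3a1, Col1a2 and Dcn no marker of the list passed the test. Pdgfra had 573, 535 and 816 in MC38-MOCK#2 and 401, 804 and 664 in MC38-WT, Pdgfrb had 471, 581 and 1100 against 336, 668 and 421, and Thy1 was 0 in all 6 samples. Whether other cells took part in these differences was not tested.

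Of 23 tested proteases of the matrix and their inhibitors 3 were higher and 3 lower, beside 1.35% and 1.77% of all genes. The median log2 fold change was -0.53. At an unadjusted p below 0.05, 7 were lower and 3 higher, beside 8.42% and 8.15% of all genes. Mmp3, the stromelysin that cleaves many matrix proteins, had 29, 24 and 84 normalized counts in MC38-MOCK#2 and 2, 3 and 10 in MC38-WT (9.13-fold, adjusted p = 0.0460 from limma). Mmp10, its close relative, had 4, 8 and 12 against 0 in all MC38-WT samples, which is at least 2.67-fold higher. Timp2, an inhibitor of metalloproteinases, was 1.43-fold higher, while its relative Timp3 had 225, 249 and 359 against 519, 615 and 697 (log2 fold change -1.15). Plaur, the receptor of urokinase, was 1.93-fold lower.

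Among 40 tested regulators of the epithelial and mesenchymal state and adhesion genes, 2 were higher and 4 lower, beside 1.35% and 1.77% of all genes. Itgb4, the integrin chain of hemidesmosomes, had 396, 425 and 499 normalized counts in MC38-MOCK#2 and 60, 105 and 80 in MC38-WT (5.39-fold, adjusted p = 0.00123 from limma), while Itga3, which encodes a laminin-binding integrin chain, was 2.16-fold lower. The mesenchymal transcription factor Twist2 had 2813, 2823 and 1666 against 1430, 1209 and 1015 (2.00-fold). Prrx1 and Zeb1, mesenchymal factors too, went down, Prrx1 to 398, 454 and 548 from 914, 1182 and 1147 (2.32-fold lower) and Zeb1 by 1.51-fold. Esrp1, an epithelial splicing factor, was also lower, with 20, 23 and 16 against 92, 102 and 117 (5.27-fold lower). Genes of either state were thus found in both directions.

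The list of the TGF-beta and BMP pathway does not hold the receptor gene Acvrl1 described above. Of its 40 tested genes 1 was higher and 2 were lower, beside 1.35% and 1.77% of all genes. Bmper, an extracellular modulator of BMPs, had 441, 370 and 695 normalized counts in MC38-MOCK#2 and 105, 184 and 110 in MC38-WT (3.77-fold). Fstl3, which binds activin, was 1.83-fold lower, and the ligand Bmp7 was 0 in all MC38-MOCK#2 samples against 6, 11 and 5. Of 33 tested Wnt pathway genes and targets (43 of 45 symbols were found), 1 was higher and 2 were lower, beside the same shares of all genes. Ephb3, a receptor of ephrins, was 2.48-fold higher, the ligand Wnt10b was 1.90-fold lower, and the ligand Wnt7b was 0 in MC38-MOCK#2 against 6, 8 and 10. Hox genes, which hold positional identity, had 3 lower (1.77% of all genes) and 0 higher (1.35%) DEGs of 31 tested, while 16 of the 31 had a log2 fold change above 0 and the median was 0.01. Hoxb9 had 23, 9 and 17 against 64, 78 and 79, Hoxb8 had 6, 7 and 11 against 23, 34 and 32, and Hoxc5 had 16, 18 and 16 against 51, 52 and 52.

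Genes of growth signalling were lower where they were called. Of 37 MAPK feedback and immediate early genes 5 were lower and 0 higher, beside 1.77% and 1.35% of all genes. Dusp4, a phosphatase that switches off MAP kinases, had 219, 190 and 155 normalized counts in MC38-MOCK#2 and 464, 640 and 510 in MC38-WT (2.86-fold lower, adjusted p = 0.00367 from limma). The transcription factor Myc had 1310, 1349 and 1182 against 2138, 3325 and 2144 (1.98-fold lower), and the growth factor Hbegf was 2.09-fold lower. Ccnd1, which encodes cyclin D1, had 3119, 2937 and 3449 against 5366, 5749 and 5367 (1.73-fold lower, log2 fold change -0.80, standard error 0.09, adjusted p = 0.00441 from limma). The list as a whole had a median log2 fold change of -0.24, and 14 of its 37 genes had an unadjusted p below 0.05, 11 lower (8.42% of all genes tested) and 3 higher (8.15%).

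Of 42 tested cell cycle genes 2 were higher and 3 lower, beside 1.35% and 1.77% of all genes. Besides Ccnd1 its partner kinase Cdk6 was lower, with 1376, 1176 and 1138 normalized counts in MC38-MOCK#2 and 2133, 1829 and 2271 in MC38-WT, and so was the inhibitor Cdkn1a (1.67-fold lower). The inhibitor Cdkn1b had 788, 900 and 1057 against 531, 549 and 540 (1.69-fold higher), and the mitotic checkpoint kinase Bub1b was 1.41-fold higher. The 42 genes had a median log2 fold change of 0.05 and summed to 104470 to 118056 in MC38-MOCK#2 and 104758 to 121705 in MC38-WT, so the sums overlapped. In the p53 pathway 1 of 36 genes was higher, the stress protein Sesn1 (1.72-fold), and 4 were lower, beside the same shares of all genes. Among these were Cdkn1a, the kinase Plk2 (2.05-fold lower) and the receptor Eda2r, which had 31, 21 and 44 against 98, 160 and 127 (4.01-fold lower).

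Among 28 NRF2 and oxidative stress genes 2 were higher and 4 lower, beside 1.35% and 1.77% of all genes. Nfe2l2, which encodes NRF2, had 1968, 2038 and 2094 normalized counts in MC38-MOCK#2 and 1461, 1461 and 1440 in MC38-WT (log2 fold change 0.48, adjusted p = 0.0170 from limma), and its target Nqo1 had 2524, 3475 and 3515 against 1295, 1144 and 1037 (2.74-fold higher). Gsta4, a glutathione transferase, had 102, 131 and 184 against 550, 613 and 560 (4.13-fold lower), and Slc7a11, the cystine importer, had 487, 535 and 705 against 1651, 2218 and 2283 (3.56-fold lower, log2 fold change -1.83, standard error 0.17, adjusted p = 0.00183 from limma). G6pdx, the first enzyme of the pentose phosphate pathway, was 1.32-fold lower. Of the other called genes of the list, Nqo1 alone was thus higher, and Gsta4, Slc7a11, G6pdx and Abcc1 were lower. The RNA of Nfe2l2 was higher in every MC38-MOCK#2 sample, and NRF2 protein was not measured. Abcc1, an exporter of drugs and glutathione conjugates, had 1602, 1432 and 1482 against 2444, 2531 and 2407 (1.63-fold lower). Of 13 drug efflux transporters 1, Abcc1, was lower and 0 were higher, beside 1.77% and 1.35% of all genes.

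Of 35 genes of cholesterol and fatty acid synthesis 2 were higher and 1 was lower, beside 1.35% and 1.77% of all genes. The synthesis enzymes Dhcr7, with 1891, 1950 and 2056 against 1278, 1342 and 1331, and Mvk, with 1208, 1390 and 1350 against 961, 945 and 781, were 1.49-fold and 1.47-fold higher. The list had a median log2 fold change of 0.13, and 10 of its genes were higher (8.15% of all genes) and 1 lower (8.42%) at an unadjusted p below 0.05.

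The amino acid response held 1 lower and 0 higher DEGs among 36 genes, beside 1.77% and 1.35% of all genes. The lower DEG, Slc7a11, is shared with the NRF2 list. At an unadjusted p below 0.05, 15 of the 36 were lower and 1 was higher, beside 8.42% and 8.15% of all genes tested, and the median log2 fold change was -0.25. The 36 genes summed to 92774, 89791 and 84232 normalized counts in MC38-MOCK#2 and 98902, 120893 and 97317 in MC38-WT, with MC38-WT sample 2 the highest. In the unfolded protein response 1 of 20 genes was lower and 0 were higher, beside 1.77% and 1.35% of all genes. The lower gene was the sensor Atf6, with 761, 751 and 663 against 1071, 1435 and 1110 (log2 fold change -0.72). In ribosome biogenesis 1 of 26 genes, Myc, was lower and 0 were higher, beside 1.77% and 1.35% of all genes. A log2 fold change below 0 was found for 24 of the 26 (48.5% of all genes), with a median of -0.22. Their sums of 115463, 111737 and 85564 normalized counts in MC38-MOCK#2 and 143766, 106117 and 127291 in MC38-WT overlapped, and the passage 8 samples were the lowest of both lines. Of 20 heat shock genes 0 were DEGs by limma. At an unadjusted p below 0.05, 3 were higher and 3 lower, beside 8.15% and 8.42% of all genes. Of 35 genes of glycolysis and the hypoxia response 0 were DEGs by limma. Here 1 was higher and 5 were lower at an unadjusted p below 0.05, beside the same shares of all genes.

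**Figure D3:**
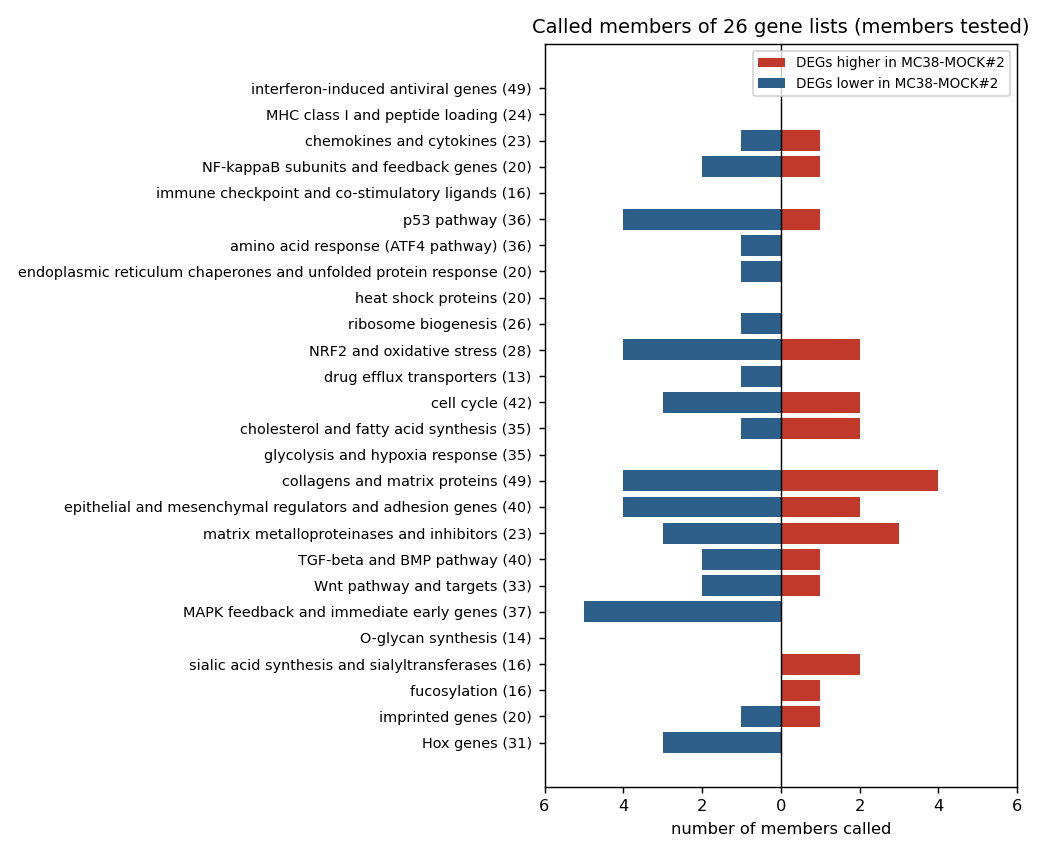
Bars give the number of DEGs among the tested members (in brackets) of 26 gene lists, higher in MC38-MOCK#2 to the right (red) and lower to the left (blue). The list of collagens and matrix proteins holds 4 in either direction, the MAPK list holds 5 lower and 0 higher, and the interferon-induced antiviral, MHC class I, immune checkpoint, heat shock, glycolysis and O-glycan lists hold 0.

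None of 49 interferon-induced antiviral genes was a DEG by limma, and their median log2 fold change was 0.17. At an unadjusted p below 0.05, 2 of the 49 were higher and 1 was lower, beside 8.15% and 8.42% of all genes. These genes differed more between harvests of a line than between the lines. They summed to 16013, 14645 and 36444 normalized counts in MC38-MOCK#2 samples 1, 2 and 3 and to 11538, 30221 and 17787 in MC38-WT samples 1, 2 and 3. MC38-MOCK#2 sample 3 was the highest of its line for 48 of the 49 genes, and MC38-WT sample 2 was the highest of its line for 48 of the 49. Among 13421 tested genes with a mean of at least 10, either sample was the highest of its line for 37.5%. Both samples come from passage 8, and their estimated depths were 8180000 and 11850000 reads. The part of passage, culture or library in this difference was not tested.

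Single genes, chosen after their values were seen, show the size of this difference. Isg15, a ubiquitin-like antiviral protein, had 140, 113 and 896 normalized counts in MC38-MOCK#2 and 121, 949 and 298 in MC38-WT. Irf7, the transcription factor that amplifies the interferon response, had 41, 30 and 352 against 6, 222 and 47. The samples of the lines overlapped for both genes, and in both lines the passage 8 sample was the highest.

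**Figure D4:**
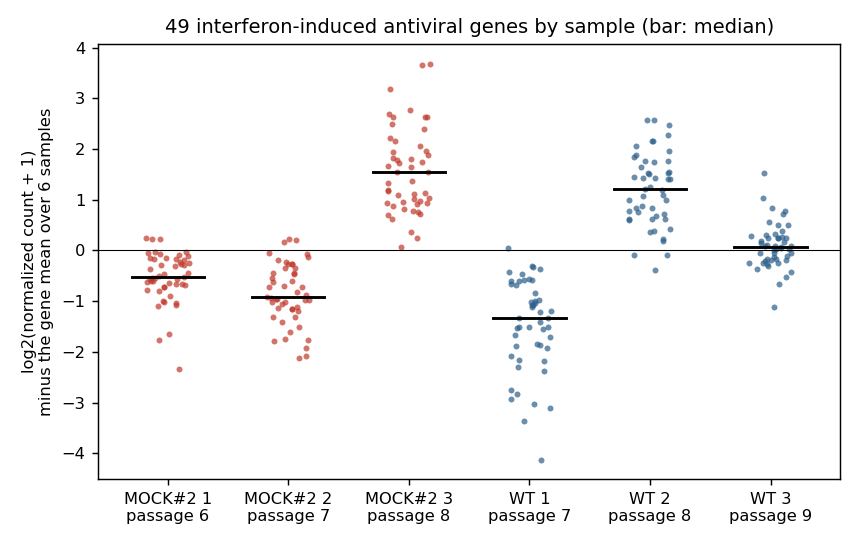
Each point is 1 of 49 interferon-induced antiviral genes in 1 sample, as log2(normalized count + 1) minus the mean of that gene over the 6 samples, with the median of the 49 genes as a bar. The median is highest in the passage 8 samples, MC38-MOCK#2 sample 3 (1.55) and then MC38-WT sample 2, and lies between -1.34 and 0.07 in the others.

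Of 24 MHC class I and peptide loading genes 0 were DEGs by limma. At an unadjusted p below 0.05, 1 of the 24 was higher and 1 lower, beside 8.15% and 8.42% of all genes. Their sums were 59634 to 66057 normalized counts in MC38-MOCK#2 and 62956 to 64939 in MC38-WT and overlapped. Of 16 tested immune checkpoint and co-stimulatory ligands 0 were DEGs by limma. Here 1 was higher and 2 were lower at an unadjusted p below 0.05, beside the same shares of all genes. Among 23 tested chemokines and cytokines 1 was higher and 1 was lower, beside 1.35% and 1.77% of all genes. Cxcl12, a chemokine of stromal cells, had 3, 8 and 15 in MC38-MOCK#2 and 0 in all MC38-WT samples (at least 2.89-fold higher). Ccl7, which attracts monocytes, had 48, 24 and 47 against 93, 185 and 140 (3.51-fold lower). Of 20 NF-kappaB subunits and feedback genes 1 was higher and 2 were lower, beside 1.35% and 1.77% of all genes. Bcl3, an atypical inhibitor protein, was 1.98-fold higher. The adhesion molecule Vcam1 had 462, 400 and 547 against 979, 935 and 962 (2.04-fold lower), and the signalling adaptor Traf1 was 2.39-fold lower.

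Glycosylation genes are the targets of other lines of the series, and those targeted there were not DEGs here. Cmas, which activates sialic acid, had 283, 348 and 319 normalized counts in MC38-MOCK#2 and 388, 306 and 339 in MC38-WT (log2 fold change -0.12, standard error 0.13, adjusted p = 0.705 from limma). C1galt1c1, the chaperone of the enzyme that extends O-glycans, had 173, 154 and 217 against 208, 202 and 244 (log2 fold change -0.27, standard error 0.16, adjusted p = 0.441 from limma). The fucosyltransferase genes Fut4 and Fut9 were at or near 0 in both lines, Fut4 with 0 in all 6 samples and Fut9 with 0, 0 and 1 against 1, 1 and 0. Of 14 tested O-glycan genes 0 were DEGs by limma, with 1 lower at an unadjusted p below 0.05 (8.42% of all genes). Of 16 tested genes of sialic acid synthesis and transfer 2 were higher and 0 lower, beside 1.35% and 1.77% of all genes. These were the sialyltransferases St3gal5, with 474, 529 and 488 against 329, 294 and 241 (1.73-fold higher), and St3gal6, with 191, 190 and 183 against 110, 110 and 119 (log2 fold change 0.73). Of 16 tested fucosylation genes 1, the fucosidase Fuca1, was higher (1.55-fold) and 0 were lower, beside the same shares. Glycosylation genes outside these lists were not counted here.

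Of 20 tested imprinted genes 1 was higher and 1, Dcn, was lower, beside 1.35% and 1.77% of all genes. The higher DEG was Plagl1, a zinc finger factor, with 156, 153 and 135 normalized counts in MC38-MOCK#2 and 62, 63 and 84 in MC38-WT. Of 8 tested markers of colon epithelium and 4 of endothelium 1 each was higher and 0 lower, beside 1.35% and 1.77% of all genes. Vil1, a protein of the intestinal brush border, had 3, 3 and 8 in MC38-MOCK#2 and 0 in MC38-WT, and Vwf, the clotting factor of endothelium, had 9, 13 and 29 against 0, 2 and 2. The other endothelial markers were near 0, with Emcn at 0 in all 6 samples and Pecam1 between 0 and 5. Of the 3 leukocyte markers tested 0 were DEGs by limma. Csf1r alone was lower at an unadjusted p below 0.05 (8.42% of all genes), with 1, 1 and 0 against 5, 4 and 2.

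DEGs lay next to each other along the chromosomes. Within 100 kb of another DEG of the same direction and next to it in the order of gene starts, 79 DEGs (11.9%) formed 37 runs, 22 higher and 15 lower. Of 17413 pairs of adjacent tested genes, 42 were both called in the same direction and 2 in opposite directions. Col3a1 and Col5a2 are such a pair, at chr1:45311538-45503282 of GRCm38. Vwf, Ano2 and Ntf3 on chromosome 6, Aspn, Omd and Ogn on chromosome 13, and Sycp2, Ppp1r3d, Fam217b and Cdh26 on chromosome 2 were runs of 3 or 4 higher genes. Genes of these runs that the naming rule did not choose are named because of their position.

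Values within the runs were of unequal size. Ogn and Omd, which like Aspn encode small proteoglycans of connective tissue, had 117, 175 and 535 normalized counts in MC38-MOCK#2 against 23, 43 and 13 in MC38-WT, and 117, 149 and 125 against 54, 56 and 42. Kcnj2, a potassium channel next to Kcnj16, had 225, 335 and 387 against 47, 57 and 55. Cdh26, a cadherin, had 1189, 1224 and 1852 against 301, 325 and 249. Each of these genes was higher in all 3 MC38-MOCK#2 samples, and Ogn was highest in sample 3, as Col3a1 and Aspn were. The clone 1700018A04Rik beside Foxf2 had 90, 72 and 119 against 6, 3 and 8. Runs of lower genes held Hoxb9 and Hoxb8, Myc and Pvt1, Gsta4 and Gsta1, and Sprr1b and Sprr1a. Whether the counting used strand is not given in the sources used here, so overlapping or antisense neighbours are uncertain.

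Promoter sequences are shown for Mmp3 and Mmp10, neighbours that rose together, and for Col3a1 and Foxf2, which had a large change and the smallest p. They are RefSeq sequences of GRCm38.p6 on the plus strand, from 250 bases before to 50 bases after the start, with the AP-1 motif, spelled TGAGTCA, in capitals, as is the TATA motif, spelled TATAAA. The windows are chr9:7445572-7445871 for Mmp3, chr9:7502092-7502391 for Mmp10, chr1:45311288-45311587 for Col3a1 and chr13:31625566-31625865 for Foxf2.
Mmp3: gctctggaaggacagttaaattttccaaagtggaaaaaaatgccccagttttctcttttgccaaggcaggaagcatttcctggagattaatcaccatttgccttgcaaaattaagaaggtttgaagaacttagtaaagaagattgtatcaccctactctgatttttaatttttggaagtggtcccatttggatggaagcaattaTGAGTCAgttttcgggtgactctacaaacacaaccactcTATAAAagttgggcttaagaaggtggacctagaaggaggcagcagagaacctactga
Mmp10: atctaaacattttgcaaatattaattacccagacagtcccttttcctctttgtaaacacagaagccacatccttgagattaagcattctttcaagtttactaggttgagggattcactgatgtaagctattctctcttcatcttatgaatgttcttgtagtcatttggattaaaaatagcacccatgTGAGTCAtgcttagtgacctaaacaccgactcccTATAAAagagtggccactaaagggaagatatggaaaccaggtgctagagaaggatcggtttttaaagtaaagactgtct
Col3a1: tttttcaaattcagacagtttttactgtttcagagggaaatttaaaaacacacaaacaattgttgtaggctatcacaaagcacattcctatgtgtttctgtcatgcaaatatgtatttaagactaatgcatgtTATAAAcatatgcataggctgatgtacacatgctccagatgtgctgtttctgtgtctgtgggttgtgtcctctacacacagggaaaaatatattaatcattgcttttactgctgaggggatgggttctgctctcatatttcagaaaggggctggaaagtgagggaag
Foxf2: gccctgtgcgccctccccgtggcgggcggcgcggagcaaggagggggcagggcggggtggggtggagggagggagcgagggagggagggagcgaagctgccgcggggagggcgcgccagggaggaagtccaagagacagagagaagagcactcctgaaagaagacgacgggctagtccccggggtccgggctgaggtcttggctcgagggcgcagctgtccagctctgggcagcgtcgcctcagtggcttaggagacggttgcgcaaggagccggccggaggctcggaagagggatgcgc

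The windows of Mmp3 and Mmp10 both hold the AP-1 and the TATA motif on the plus strand. The AP-1 motif begins 46 and 63 bases before the start, and the TATA motif 7 and 29 bases before it. Col3a1 holds the TATA motif 117 bases before the start and no AP-1 motif, and Foxf2 holds neither but 27 CG dinucleotides, where Mmp3, Mmp10 and Col3a1 hold 1, 2 and 0. A promoter was matched for 11855 of the tested genes. Searched on both strands, the AP-1 motif was in 3.94% of their promoters, in 2.87% of 209 matched higher DEGs and in 6.61% of 257 matched lower DEGs. The TATA motif was in 7.87%, 9.09% and 10.9% of these sets in the same order. The E-box, spelled CACGTG, was in 9.66%, 9.09% and 8.56%. The CCAAT box was in 39.1%, 39.2% and 34.2%. A match is a description of the letters and not a site in use.

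By chromosome, X had the most lower against higher DEGs. Of 901 tested X-linked genes 41 (4.55%) were DEGs, beside 3.11% of all genes and 4.93% of 689 genes on chromosome 15. On X 36 were lower and 5 higher, while chromosome 2 had 39 higher and 22 lower among 1689. Over genes whose mean reached 10, the median difference was -0.06 on X and 0.10 on chromosome 2 on the log2 scale. Of 16 tested X-linked genes with a symbol that begins with Mage, 6 were lower and 0 higher, beside 1.77% and 1.35% of all genes. Of 13 that begin with Rhox, a family of reproductive homeobox genes, 2 were lower and 0 higher. These families, and the X-linked genes named next, were picked after their values were seen.

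Rhox2h had 12, 2 and 5 normalized counts in MC38-MOCK#2 and 99, 101 and 95 in MC38-WT, and Mageb4 had 1, 0 and 0 against 7, 15 and 15. Lower X-linked genes outside these families included Pak3, a kinase of the actin cytoskeleton, with 0, 1 and 0 against 21, 9 and 17, and Fndc3c1 with 58, 65 and 51 against 271, 203 and 229. Mage and Rhox genes have near-identical copies, so the division of reads between members is uncertain. Amot, a regulator of the Hippo pathway, was among the 5 higher X-linked genes, with 2343, 2391 and 2863 against 1497, 1691 and 1559.

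Few genes were present in one line and 0 in every sample of the other. With a mean of at least 10 normalized counts in one line, 4 genes were 0 in MC38-WT and 4 were 0 in MC38-MOCK#2. Besides Slitrk6 these were Ckmt1, a mitochondrial creatine kinase with 21, 11 and 28 in MC38-MOCK#2 (at least 6.67-fold higher), Ntf3, the neurotrophin NT-3, with 6, 11 and 35 (at least 5.78-fold higher), and the pseudogene Gm15067 with 71, 1 and 0, which rests on sample 1 and was not called (adjusted p = 0.429 from limma). In the other direction Rit2, a small GTPase of neurons, had 13, 16 and 15 in MC38-WT (at least 4.89-fold lower in MC38-MOCK#2), Ccdc155 had 17, 11 and 13 (at least 4.56-fold lower), C330024D21Rik had 12, 9 and 17, and Cass4, an adhesion scaffold, had 5, 24 and 8.

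The other 6 lines, MC38-MOCK#1, MC38-CMAS KO, MC38-COSMC KO, MC38-DKO, MC38-FUT4 and MC38-FUT9, show which line of the pair stood apart. The line labelled MC38-FUT4 had Fut4 at 0 to 1 and Fut9 at 171 to 209 normalized counts, which goes against its label, while MC38-FUT9 had Fut9 at 641 to 955. For 274 of the 663 DEGs (41.3%) all 3 MC38-MOCK#2 samples lay above or below all 21 other samples, as they did for 3.17% of all genes tested. All 3 MC38-WT samples lay outside the 21 others for 15 DEGs (2.26%), beside 0.286% of all genes. MC38-MOCK#2 stood apart for 176 of the higher DEGs (61.3%) and 98 of the lower (26.1%). These shares use the same MC38-MOCK#2 and MC38-WT samples that called the DEGs and are a description.

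Pappa had at most 12 normalized counts in the 18 samples of the other lines, Vgll3 at most 96 and Ptgs1 at most 87, all below every MC38-MOCK#2 sample. Foxf2 had 156 to 445 in these samples, so that MC38-MOCK#2 was the highest line and MC38-WT the lowest. Col3a1 was an exception among the largest increases, with 4918 to 6318 in the line labelled MC38-FUT4, a level that overlaps with MC38-MOCK#2, and at most 470 in the remaining lines. Acvrl1 had 84 to 94 in MC38-FUT9, just below MC38-MOCK#2, and Pex5l had 118 to 131 in the line labelled MC38-FUT4, above it. Plagl1 was above MC38-MOCK#2 in MC38-MOCK#1 (192 to 223), MC38-CMAS KO (255 to 285), MC38-DKO (194 to 307) and the line labelled MC38-FUT4 (193 to 209). It was below MC38-MOCK#2 in MC38-COSMC KO (104 to 114) and MC38-FUT9 (5 to 6).

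Lower DEGs were often shared with some other line. Col6a3 had 96 to 110 normalized counts in MC38-MOCK#1 and 121 to 228 in MC38-DKO, near its level in MC38-MOCK#2, but 3382 to 3890 in MC38-CMAS KO and 3765 to 4292 in MC38-COSMC KO, near MC38-WT. Dcn was at most 125 in all 18 samples, below each MC38-WT sample, so that MC38-WT was the line apart for this gene. Sec16b, Acsl5 and Sparc were low in MC38-MOCK#1 and MC38-DKO as well, with line means of 3.67 and 3.67, 174 and 137, and 436 and 390.

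The line mean lay nearer to MC38-MOCK#2 than to MC38-WT for 13.1% of the 663 DEGs in MC38-CMAS KO, 14.0% in MC38-COSMC KO, 24.4% in the line labelled MC38-FUT4, 29.9% in MC38-FUT9, 33.9% in MC38-MOCK#1 and 36.2% in MC38-DKO. For 213 DEGs (32.1%) it did so in 0 of the 6 lines, and for 7 (1.06%) in all 6. Among the lower DEGs the share reached 44.4% in MC38-DKO, 41.8% in MC38-MOCK#1 and 41.0% in MC38-FUT9, and among the higher DEGs it was at most 25.4%, in MC38-DKO.

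**Figure D5:**
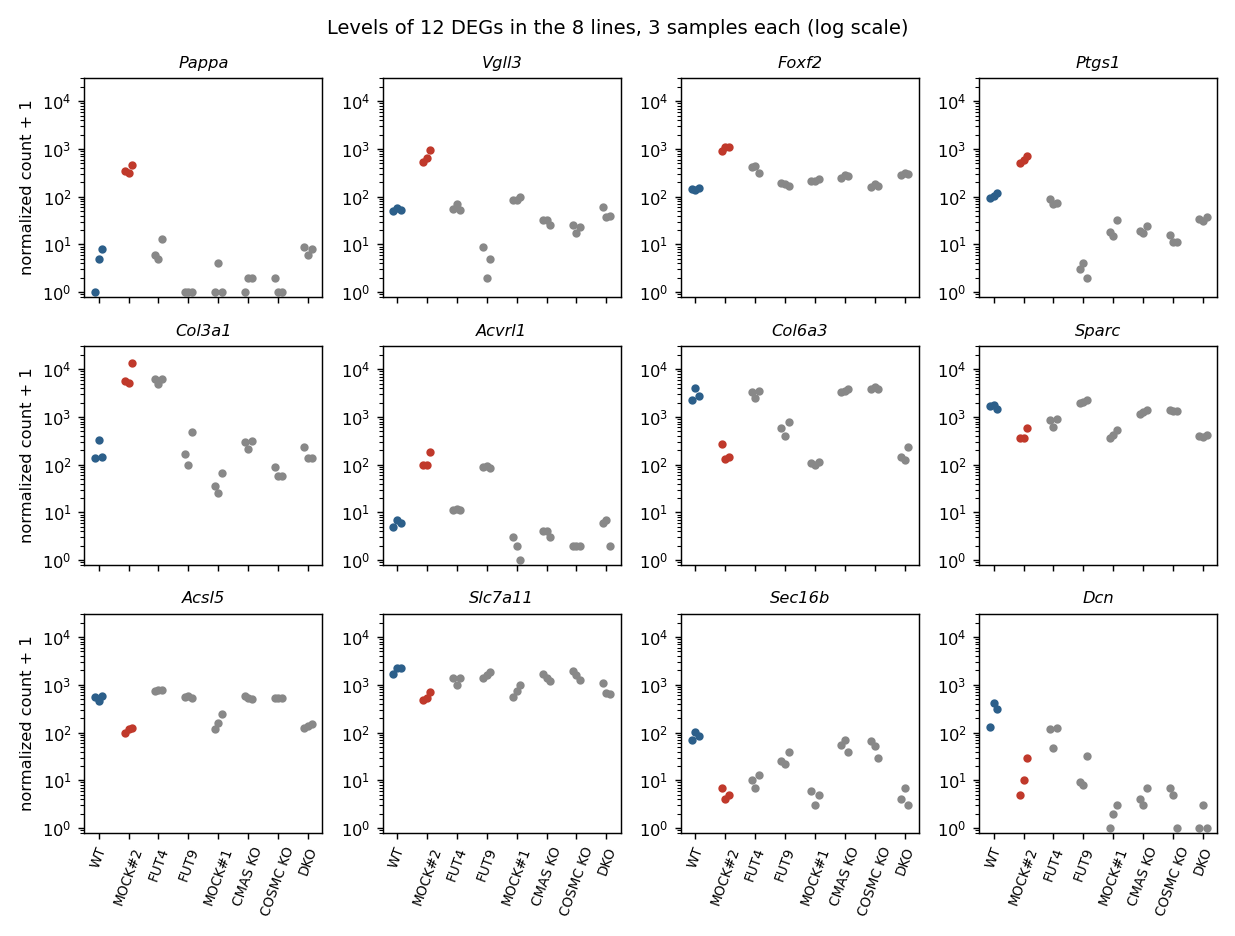
Panels show the normalized count + 1 (log scale) of 12 DEGs in the 3 samples of each of the 8 lines, with MC38-WT in blue, MC38-MOCK#2 in red and the other lines in grey. Pappa, Vgll3 and Ptgs1 are high in MC38-MOCK#2 alone among the 24 samples, Col3a1 is high in the line labelled MC38-FUT4 too, and Col6a3 is low in MC38-MOCK#1 and MC38-DKO as in MC38-MOCK#2.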

How the data were processed

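RNA of 3 samples each of MC38-MOCK#2 and MC38-WT was compared, and the other 18 samples of the series gave levels only. Per the paper's methods and the labels, the authors prepared libraries with a stranded mRNA kit, trimmed single reads, aligned them to GRCm38 with HISAT2 2.0.4, processed them with SAMtools 0.1.19, counted them per gene with featureCounts (Subread 1.5.0-p3) and scaled them for library size and TMM with edgeR 3.18.1. What the authors deposited is treated here as a score, since scaled counts that were rounded afterwards are no raw counts, and no count model was used. Normalized counts of 52636 genes were given symbols and GRCm38 coordinates from GENCODE, which matched 52489.

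Log2(value + 1) was tested with limma 3.58.1 under R 4.3.3, using lmFit and then eBayes with its trend option and no covariate, for genes with at most 4 zeros in the 6 samples. P-values were adjusted by Benjamini-Hochberg over 21292 genes. In a simulation of 21292 genes of which 200 differed 2-fold, limma called 170, all in the right direction, and 7 unchanged genes, and with 4-fold changes it called 198 and 11. With no changed gene it called 0. The share of false calls and of missed changes in the measured samples was not tested. Reads per library were estimated from the spacing of rounded values, and the estimate was within 0.00816% of 10 simulated factors, after a first form of the estimator had failed on simulated factors and was revised. The depths are approximate and enter no test. Precision is limited by 3 samples per line, and 1 read was worth 0.943 to 1.67 normalized counts in these 6 samples.

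The genes named were the 12 largest changes of either direction among non-overlapping DEGs with a mean of at least 30 in the higher line and a symbol that is not a Gm or Rik name, up to 4 DEGs of either direction from each of 30 gene lists (26 pathways and 4 sets of cell type markers), Fut4, Fut9, Cmas and C1galt1c1, the 5 DEGs with the smallest p, and the 3 highest markers of each cell type. Other genes were named after their values were seen. Some genes that the rule chose are not reported here. The comparison, its genes and the lists were chosen with earlier results of these data known. Folds are ratios of means, and a line at 0 in all samples was set to 3 normalized counts. Alternatives were other pseudocounts, filters, scalings, covariates and fits, and leaving out each sample. Python 3.11.15, pandas 2.3.3, numpy 2.4.6 and matplotlib 3.10.9 were used for the rest.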

Additional observations from a re-analysis of the deposited data

How the results depend on the processing

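The 663 DEGs (287 higher, 376 lower) stayed within 1.5 times of that number, in both directions, under pseudocounts of 0.5 and 5, no filter, a mean of at least 10, the same total per sample, median of ratios and removal of chromosome medians, with 636 to 720 DEGs. A fit of all 8 lines called 2235 (1023 higher, 1212 lower), 643 of them among the 663, and eBayes without a trend called 289 (101 higher, 188 lower), 229 among the 663. With passage as a covariate 376 were called (195 higher, 181 lower). With passages 7 and 8 only, 2 samples of each line, limma called 0 (0 higher, 0 lower), while 2687 genes had p below 0.05 before adjustment. The direction could not change there, since the samples of no DEG overlapped, and 638 of the 663 had an unadjusted p below 0.05. An absolute log2 fold change above 1 left 399 (144 higher, 255 lower). Leaving out 1 sample at a time gave 0 to 186 DEGs, 0 to 100 higher and 0 to 88 lower.

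With the replicate number as a block, limma called 0 genes (0 higher, 0 lower). Before adjustment 3269 had p below 0.05, all 663 DEGs among them. With 3 samples in each line the block leaves every log2 fold change as it was, so no direction could change. The replicate number did not pair the samples. Deviations from the line means of samples 1, 2 and 3 correlated with r = 0.24, -0.30 and 0.03 across 13144 genes. Samples of the same passage, which the labels give, correlated with r = 0.32 at passage 7 and 0.40 at passage 8. The block also leaves 2 fewer residual degrees of freedom.

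No DEG among the named genes changed direction under any alternative, which could not happen in fits that left out samples or used the block. Of named genes that were not called, Lyz2 (log2 fold change 0.45) ran from -0.055 to 1.00 without 1 sample, below 0 without MC38-MOCK#2 replicate 3. Pdgfra (0.07) ran from -0.21 without MC38-WT replicate 1 to 0.29, with -0.11 without MC38-MOCK#2 replicate 3. Cd68 (-0.01) was 0.0068 with the same total, 0.47 with the passage covariate and 0.28 with passages 7 and 8, and ran from -0.48 to 0.43 without 1 sample, with 0.02 without MC38-WT replicate 3 and 0.24 without MC38-MOCK#2 replicate 1. The causes were not tested. At an estimated 6760000 to 12070000 reads, genes below about 10 normalized counts rest on few reads.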
